A study of Homo sapiens with 6 samples.

Results

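The genes described here start clotting and dissolve clots. They are PLAT (tissue plasminogen activator), PLAU (urokinase), SERPINB2 (plasminogen activator inhibitor 2), F3 (tissue factor), TFPI (tissue factor pathway inhibitor) and THBS1 (thrombospondin 1), 6 of the 5187 genes in the deposited count files. They were chosen by name after their values in this comparison were known, so the differences between the groups are given for these 6 genes as a description, without a test. The cells were Huh7, an established human liver cancer line, grown in DMEM with fetal bovine serum. The control group has 3 libraries from cultures without added GABA (gamma-aminobutyric acid, a neurotransmitter), and the other group has 3 libraries from cultures that received GABA for 24 h. The labels call the libraries biological replicates 1, 2 and 3 of each group and give neither the GABA dose nor a shared batch, so the p-values below measure the spread between these cultures of a single line.

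Tissue factor is a membrane protein that binds factor VII from plasma and begins the clotting cascade, and TFPI blocks that first complex. The opposite process, fibrinolysis, depends on plasmin, which is cut from plasminogen by the serine proteases encoded by PLAT and PLAU. SERPINB2 inhibits both activators, and thrombospondin 1 is a large secreted matrix glycoprotein that binds plasminogen system proteins, CD47 and integrins. Outside the blood, cells use the same proteases at their surface to degrade matrix, and hepatocytes are the main source of most circulating clotting factors.

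Promoter sequences were compared because F3, SERPINB2 and THBS1 were all higher with GABA. RefSeq promoters on GRCh38.p14 were found for 3806 listed genes, among them 5 of the 6, all but PLAT. Each was searched on both strands over the 250 bases before the RefSeq start for AP-1 (TGANTCA), CRE (TGACGTCA), EGR (GCGNGGGCG), the GC box (GGGCGG, which can overlap EGR), the TATA box (TATAAA) and TEAD (GGAATG). The stretches below run from 250 bases before the start, 5′ to 3′ on the strand of the gene, up to the base before the first GENCODE exon of the gene within the window, and capitals mark AP-1, EGR and TATA matches. Their positions are chr1:94541801-94542009 (minus strand) for F3, chr18:63887455-63887699 (plus) for SERPINB2, chr15:39580829-39581078 (plus) for THBS1 and chr2:187554493-187554685 (minus) for TFPI, which is shown as a gene that was lower. The promoters of PLAU, also lower, are not printed. The SERPINB2 and TFPI windows lie inside the GENCODE gene, because their RefSeq starts are 16013 and 11325 bases after its most upstream start. The same holds for both PLAU windows (1433 and 1955 bases) and for the end of the F3 window (41 bases).
F3: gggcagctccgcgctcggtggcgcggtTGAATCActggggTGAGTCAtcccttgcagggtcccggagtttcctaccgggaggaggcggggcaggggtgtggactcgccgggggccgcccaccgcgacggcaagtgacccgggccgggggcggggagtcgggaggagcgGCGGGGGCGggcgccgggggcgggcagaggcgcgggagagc
SERPINB2: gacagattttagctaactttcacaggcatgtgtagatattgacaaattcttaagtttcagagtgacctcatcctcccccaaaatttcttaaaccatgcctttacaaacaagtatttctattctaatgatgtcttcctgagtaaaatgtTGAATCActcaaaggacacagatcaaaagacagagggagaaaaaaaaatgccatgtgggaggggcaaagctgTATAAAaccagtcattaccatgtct
THBS1: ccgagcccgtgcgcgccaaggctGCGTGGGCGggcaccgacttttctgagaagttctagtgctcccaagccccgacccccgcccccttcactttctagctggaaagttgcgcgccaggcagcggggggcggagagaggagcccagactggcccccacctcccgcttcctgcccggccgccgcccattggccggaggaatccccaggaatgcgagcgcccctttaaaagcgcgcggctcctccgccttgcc
TFPI: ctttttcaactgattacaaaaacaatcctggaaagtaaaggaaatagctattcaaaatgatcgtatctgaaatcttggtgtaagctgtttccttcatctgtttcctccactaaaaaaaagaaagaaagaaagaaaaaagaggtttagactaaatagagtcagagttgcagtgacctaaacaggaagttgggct

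The F3 window held AP-1 letters 223 and 210 bases before the start, and the SERPINB2 window held them 102 bases before it, against 6.57% of 35116 RefSeq promoters and 5.03% of the 5642 promoters of listed genes with at least 1 match. F3 and SERPINB2 also had a TATA match each, 28 and 30 bases before the start (10.7% of all and 6.58% of listed-gene promoters). The one in F3 was on the strand opposite to the gene (read as TTTATA). It lies past the printed stretch, inside the GENCODE gene. F3 and THBS1 both had an EGR match (8.41% of all and 13.4% of listed-gene promoters), 82 and 227 bases before their starts, and each had 4 GC boxes (42.6% of all and 63.6% of listed-gene promoters hold 1 or more). THBS1 alone of the 5 genes had the TEAD letters, 46 bases before its start (11.9% of all and 9.59% of listed-gene promoters). No CRE was in any of these windows (1.65% of all and 2.09% of listed-gene promoters). The TFPI window had none of the 6 motifs, and of 2 PLAU promoters the first had none and the second had 3 GC boxes. The windows also differed in base composition, with 78.0% G and C in F3, 69.6% in THBS1, 37.2% in SERPINB2 and 38.4% in TFPI. The first and second PLAU promoters had 46.8% and 68.8%, so the genes that were lower also differed from each other. A match of letters is a description and does not show that a factor was bound.

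Read counts are whole numbers per gene. They were scaled for depth with TMM to CPM, the usual depth-scaled count, here a share of what the listed genes hold and not of the whole library. Throughout, the error of a level is the SD over 3 libraries and that of a log2 fold change is its SE. The libraries held 7702666 to 8392945 counts on the listed genes. The list follows the comparison itself: over 4981 tested genes, row number in the files and the p-value of the comparison were rank-correlated at 0.93 (Spearman), and the smallest absolute log2 fold change was 0.12. With edgeR's quasi-likelihood test, 98.7% of the tested genes passed an adjusted p of 0.05, and in 92.5% the groups did not overlap (45.8% higher and 46.7% lower with GABA), so passing says little about a gene in these files. The groups overlapped in none of the 6 genes, with 4 higher and 2 lower with GABA, a count that the choice of genes fixed and from which nothing is read. None of 10 hepatocyte markers such as ALB and APOB is listed, and the identity of the cells was therefore not checked.

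PLAT and PLAU, the activators of plasminogen, differed in the size of their change and, with the scaling used, in its sign. PLAT (ENSG00000104368, chromosome 8, 42175233 to 42207724, minus strand) had 389, 393 and 330 CPM in control replicates 1, 2 and 3. It had 1085, 1062 and 1168 CPM in GABA replicates 1, 2 and 3. The lowest GABA library was thus 171% above the highest control library, and control replicate 3 was the lowest of all. The means were 371 ± 35.4 and 1105 ± 55.7 CPM (SD, n = 3), a log2 fold change of 1.58 ± 0.08 (SE), or 2.98-fold. PLAT stands in row 1 of the files, and 97.5% of tested genes had a smaller absolute log2 fold change. In these bulk libraries a change in the number of cells that express a gene and a change in its RNA per cell cannot be told apart.

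PLAU (ENSG00000122861, chromosome 10, 73909177 to 73917497, plus strand) had 741, 835 and 794 CPM in the control libraries. It had 714, 731 and 656 CPM in the GABA libraries. All GABA values lay below all control values, but the groups came within 1.40% of each other. The means were 790 ± 47.0 and 700 ± 39.2 CPM (SD, n = 3), a log2 fold change of -0.17 ± 0.07 (SE). Only 2.29% of tested genes had a smaller absolute change. The median log2 fold change of all tested genes was -0.18, about that of PLAU, so its sign rests on where the scaling sets 0. With DESeq2 the PLAU value was -0.13 ± 0.08 (SE). Of the PLAU exon length, 31.1% overlaps C10orf55 on the opposite strand, and the use of strand in counting is not given in the sources used here, so reads of both genes may be included.

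Because both activators were counted in the same library, their ratio does not depend on the scaling, and its change between the groups does not depend on gene length. The mean PLAT to PLAU ratio was 3.37 times as high in the GABA as in the control libraries. Per kilobase of merged exons, PLAT was at 0.234, 0.210 and 0.185 of PLAU in control replicates 1, 2 and 3 and at 0.677, 0.648 and 0.794 in GABA replicates 1, 2 and 3. PLAU was thus the more abundant activator transcript in all 6 libraries by this length. Per kilobase of the principal transcript (the longest carrying GENCODE's APPRIS principal tag, a length added after the data had been seen), the mean ratio was 0.403 ± 0.05 in control and 1.36 ± 0.15 in GABA libraries (SD, n = 3). Which activator was the more abundant with GABA therefore turns with the length used, and with the longest transcript the GABA ratio was 1.22 ± 0.13. The lengths differ mostly for PLAT, with 6.62 kb of merged exons against 2.71 kb of principal transcript. For PLAU they are 2.95 and 2.32 kb. The longest annotated PLAT transcript has only 2 exons.

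The F3 to TFPI ratio was 2.17 times as high in the GABA as in the control libraries. Per kilobase of merged exons it was 9.01, 9.15 and 7.62 in control and 18.3, 19.3 and 18.3 in GABA libraries. Per kilobase of the principal transcript the means were 3.58 ± 0.35 and 7.77 ± 0.23 (SD, n = 3), less than 0.5 of those by merged exons. F3 was the higher of the pair in all 6 libraries with either length.

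**Figure D1:**
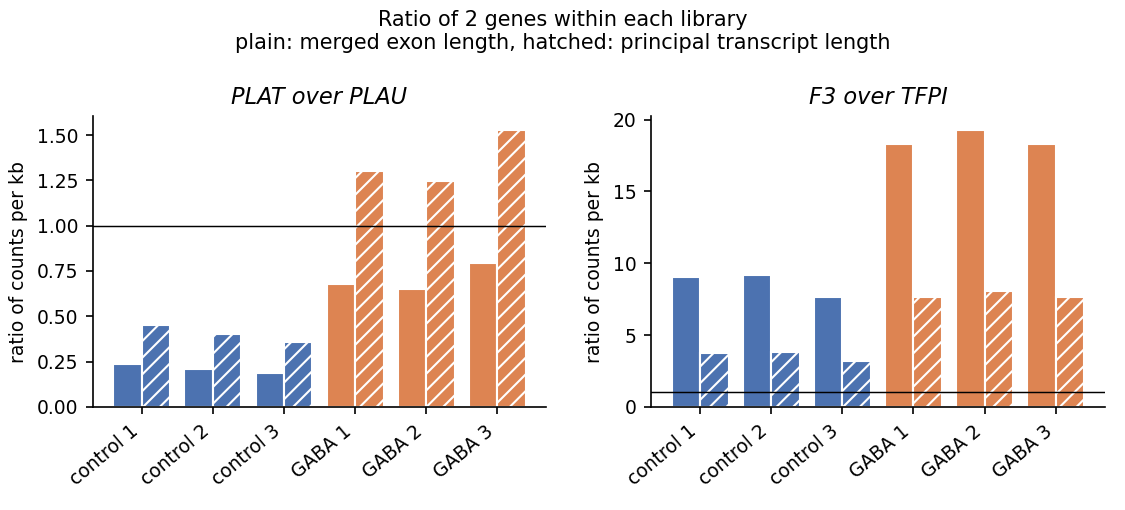
Ratios of PLAT to PLAU and of F3 to TFPI in each library (blue control, orange GABA), with counts divided by the length of merged exons (plain bars) or of the principal transcript (hatched bars), and a line at 1. PLAT over PLAU in GABA libraries is 0.648 to 0.794 by merged exons and 1.25 to 1.53 by principal transcript, on opposite sides of the line.

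Of the inhibitors of plasminogen activation, SERPINB2 was the member with the lowest counts. SERPINB2 (ENSG00000197632, chromosome 18, 63871692 to 63903890, plus strand) had 55.6, 64.7 and 73.4 CPM in control replicates 1, 2 and 3. It had 147, 174 and 136 CPM in the GABA replicates, each at least 85.6% above the highest control value. The means were 64.6 ± 8.90 and 152 ± 19.3 CPM (SD, n = 3), with a log2 fold change of 1.24 ± 0.11 (SE) or 2.36-fold. Its replicates varied by 13.8% and 12.7% (coefficient of variation in control and GABA), against 4.42% and 2.87% expected from counting alone. On the same strand, 19.9% of its exon length is shared with the neighbouring SERPINB10, which is not among the listed genes.

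Of 9 further inhibitors of plasminogen activation and plasmin looked at, 1 was listed, and it rose. SERPINI1, neuroserpin, an inhibitor of tissue plasminogen activator, went from 1.38 ± 0.38 to 2.92 ± 0.26 CPM (edgeR adjusted p = 0.0079, with a log2 fold change of 1.07 ± 0.31). It had few reads, at 1.82, 1.17 and 1.14 CPM in control and 3.21, 2.84 and 2.71 CPM in GABA libraries. It met the count filter through the GABA libraries, so its adjusted p is given as a description. Of 11 genes for plasminogen and its receptors, 2 were listed. PLGRKT, a plasminogen receptor, fell by 0.56 ± 0.14 on the log2 scale (43.0 to 29.2 CPM, adjusted p = 0.0045). KRT8, a keratin that can bind plasminogen at the cell surface, rose by 0.21 ± 0.09 (adjusted p = 0.038). The call for KRT8 was lost without GABA replicate 1, 2 or 3 (adjusted p = 0.063, 0.066 and 0.15), and without control replicate 3 its change was 0.10. PLAUR, the urokinase receptor, and PLG are not in the files used here.

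F3 and TFPI, the initiator of clotting and its inhibitor, differed in the sign of their change with the scaling used. F3 (ENSG00000117525, chromosome 1, 94529225 to 94541800, minus strand) had 1333, 1244 and 1363 CPM in the control libraries. It had 2405, 2476 and 2389 CPM in the GABA libraries, which lay at least 75.3% above the control range. The means were 1313 ± 62.1 and 2424 ± 46.2 CPM (SD, n = 3), a log2 fold change of 0.88 ± 0.06 (SE) or 1.85-fold. None of the exon length of F3 overlaps another annotated gene, which also holds for PLAT.

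TFPI (ENSG00000003436, chromosome 2, 187464230 to 187565760, minus strand) had 603, 554 and 729 CPM in control replicates 1, 2 and 3. It had 535, 524 and 532 CPM in the GABA replicates. The GABA values lay close together, whereas control replicate 3 stood well above the other control libraries. The means were 629 ± 90.6 and 530 ± 5.79 CPM (SD, n = 3), a log2 fold change of -0.25 ± 0.09 (SE). Without control replicate 3 it was -0.13 ± 0.05, about the size of the smallest changes among the listed genes. That library also had the highest share of mitochondrially encoded counts, 9.11% against 6.66% to 7.74% in the other 5, and the part of this in the TFPI value was not tested. Over the listed genes as a whole, control replicate 3 also differed more from control replicates 1 and 2 than they did from each other. Scaled without mitochondrially encoded genes, the TFPI value was -0.24, and with DESeq2 it was -0.20 ± 0.10 (SE), beside a median of -0.18 over all tested genes in the main fit.

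**Figure D2:**
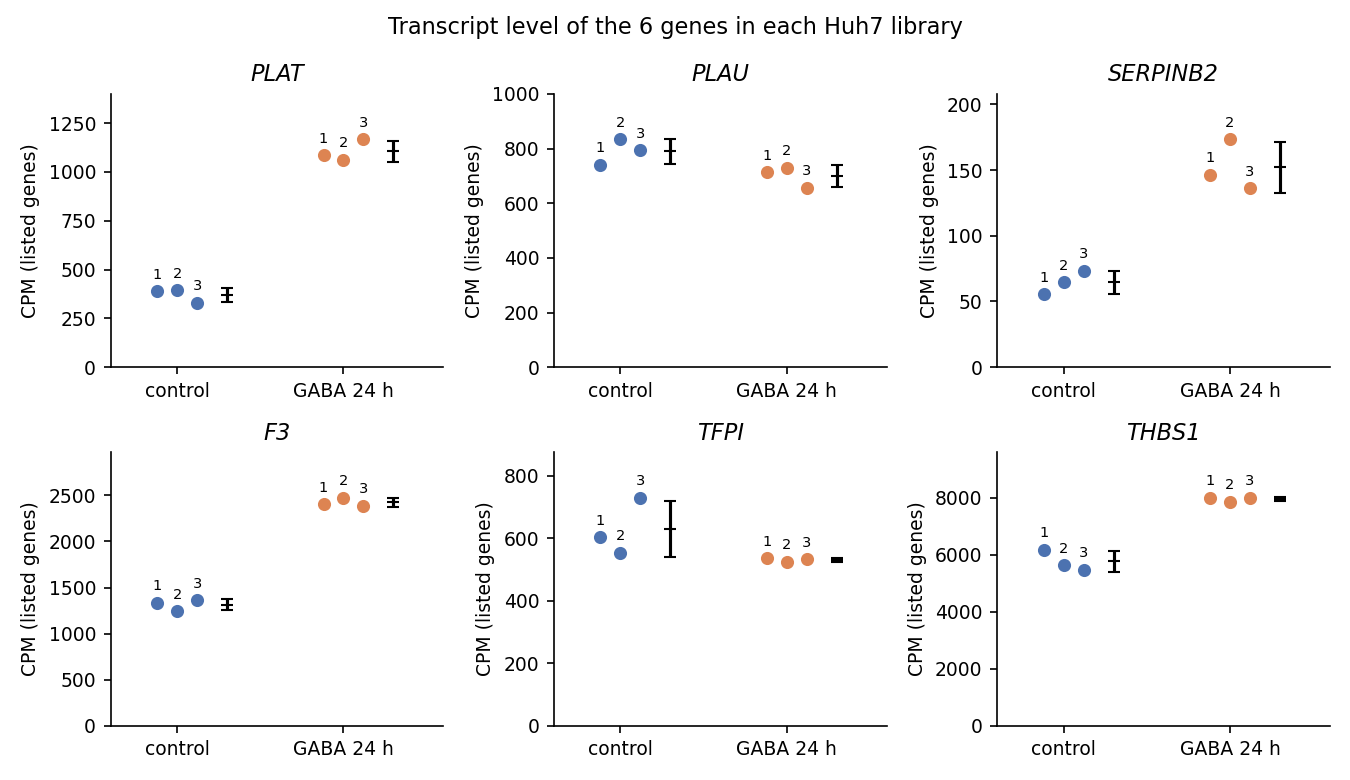
CPM relative to the listed genes (vertical axes from 0, scales differ between panels) in each library, numbered by replicate, with the mean and SD of 3 libraries beside each group. PLAT, SERPINB2, F3 and THBS1 lie higher in all GABA libraries, and PLAU and TFPI lie slightly lower, with TFPI control replicate 3 apart at 729.

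Of 12 further genes looked at with the anticoagulants, 4 were listed, of which 1 rose and 3 fell. PROS1, protein S, a cofactor of activated protein C and of TFPI, fell from 112 ± 6.44 to 75.8 ± 1.12 CPM (adjusted p = 1.7e-04, with a log2 fold change of -0.56 ± 0.08). TFPI2, a related Kunitz inhibitor of plasmin and other proteases, fell by 0.51 ± 0.15 (14.05 to 9.885 CPM, adjusted p = 0.0089). PROCR, the endothelial protein C receptor, fell by 0.24 ± 0.07 (119 to 101 CPM, adjusted p = 0.011), a call that was lost without GABA replicate 1 (adjusted p = 0.052). The 1 that rose was GAS6, by 0.22 ± 0.06 (adjusted p = 0.0058). GAS6 is a vitamin K-dependent ligand of the receptor AXL, homologous to protein S but not itself a known anticoagulant. For comparison, 47.6% of all tested genes were called higher and 51.2% lower. Which direction had more calls turned with the scaling, with 2371 higher and 1953 lower by DESeq2 and 2373 and 2050 with its size factors.

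Of 16 clotting factors besides F3, 1 was listed. The list follows the comparison, so a factor that is not listed need not be unexpressed. F8, the cofactor factor VIII, rose from 25.4 ± 0.62 to 34.0 ± 0.90 CPM (adjusted p = 0.0038, with a log2 fold change of 0.42 ± 0.10). Of 9 genes for making and secreting clotting factors 4 were listed, and 2 rose and 2 fell, beside 47.6% and 51.2% of all tested genes. GGCX, the carboxylase that modifies vitamin K-dependent factors, rose by 0.43 ± 0.07 (101 to 135 CPM), and P4HB, a protein disulfide isomerase, by 0.37 ± 0.06 (1102 to 1428 CPM). VKORC1L1, a vitamin K epoxide reductase, fell by 0.43 ± 0.08 (209 to 155 CPM), and MCFD2, a cargo receptor subunit for factors V and VIII, fell by 0.20 ± 0.06 (1008 to 881 CPM). The highest adjusted p of these 4 was 0.0096.

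The receptors that sense clotting proteases differed in sign. F2RL1, protease-activated receptor 2, which the tissue factor complex can cleave, had 49.3, 48.7 and 50.7 CPM in control and 86.8, 84.0 and 81.5 CPM in GABA replicates 1, 2 and 3. It rose by 0.76 ± 0.09 on the log2 scale (adjusted p = 3.3e-05), and the groups did not overlap. F2RL2, protease-activated receptor 3, which thrombin cleaves, had 32.3, 28.7 and 28.998 CPM in control and 19.0, 15.5 and 12.3 CPM in GABA libraries. It fell by 0.95 ± 0.15 (adjusted p = 3.7e-04). The thrombin receptor F2R and F2RL3 are not in the files used here.

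THBS1 was the member with the highest counts. THBS1 (ENSG00000137801, chromosome 15, 39581079 to 39599466, plus strand) had 6175, 5625 and 5474 CPM in control replicates 1, 2 and 3. It had 7995, 7861 and 7997 CPM in the GABA replicates, at least 27.3% above the control range. The means were 5758 ± 369 and 7951 ± 78.2 CPM (SD, n = 3), a log2 fold change of 0.47 ± 0.06 (SE) or 1.38-fold, and 59.6% of tested genes had a smaller absolute change. Opposite-strand genes overlap 7.58% of its exon length. THBS1 alone took 0.573% of all counts on the listed genes in the control libraries.

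Of 16 further thrombospondins and their receptors 8 were listed, and 5 rose and 3 fell, beside 47.6% and 51.2% of all tested genes. Without control replicate 1 or 2, or without GABA replicate 1 or 2, 4 rose, because THBS2 no longer passed (adjusted p of 0.053 to 0.083). ITGA6, an integrin subunit, rose from 899 ± 43.1 to 1167 ± 36.1 CPM (adjusted p = 3.3e-04, with a log2 fold change of 0.38 ± 0.06), and SDC1, the proteoglycan syndecan 1, from 215 ± 29.99 to 310 ± 11.96 CPM (0.53 ± 0.09). ITGB5, a partner of integrin alpha V, fell by 0.40 ± 0.07 (422 to 320 CPM), and SDC4, syndecan 4, by 0.26 ± 0.07 (591 to 492 CPM). CD47, a thrombospondin receptor that also protects cells from phagocytosis, fell by 0.28 ± 0.08 (175 to 144 CPM, adjusted p = 0.0066). CD47 was named after its value had been seen.

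Of 17 genes for proteases that act downstream at the cell surface and for related factors, not all of them proteases, 4 were listed. ADAMTS1, a metalloprotease that can cleave thrombospondin 1, rose from 940 ± 85.8 to 1776 ± 40.2 CPM (adjusted p = 2.5e-06, with a log2 fold change of 0.92 ± 0.07). MST1, a hepatocyte growth factor-like protein related to plasminogen, rose by 1.03 ± 0.17 (17.0 to 34.8 CPM). The gelatinases differed in sign, with MMP9 higher by 0.57 ± 0.13 (30.2 to 45.0 CPM) and MMP2 at -0.69 ± 0.15 (25.1 to 15.6 CPM, adjusted p = 0.0018).

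**Figure D3:**
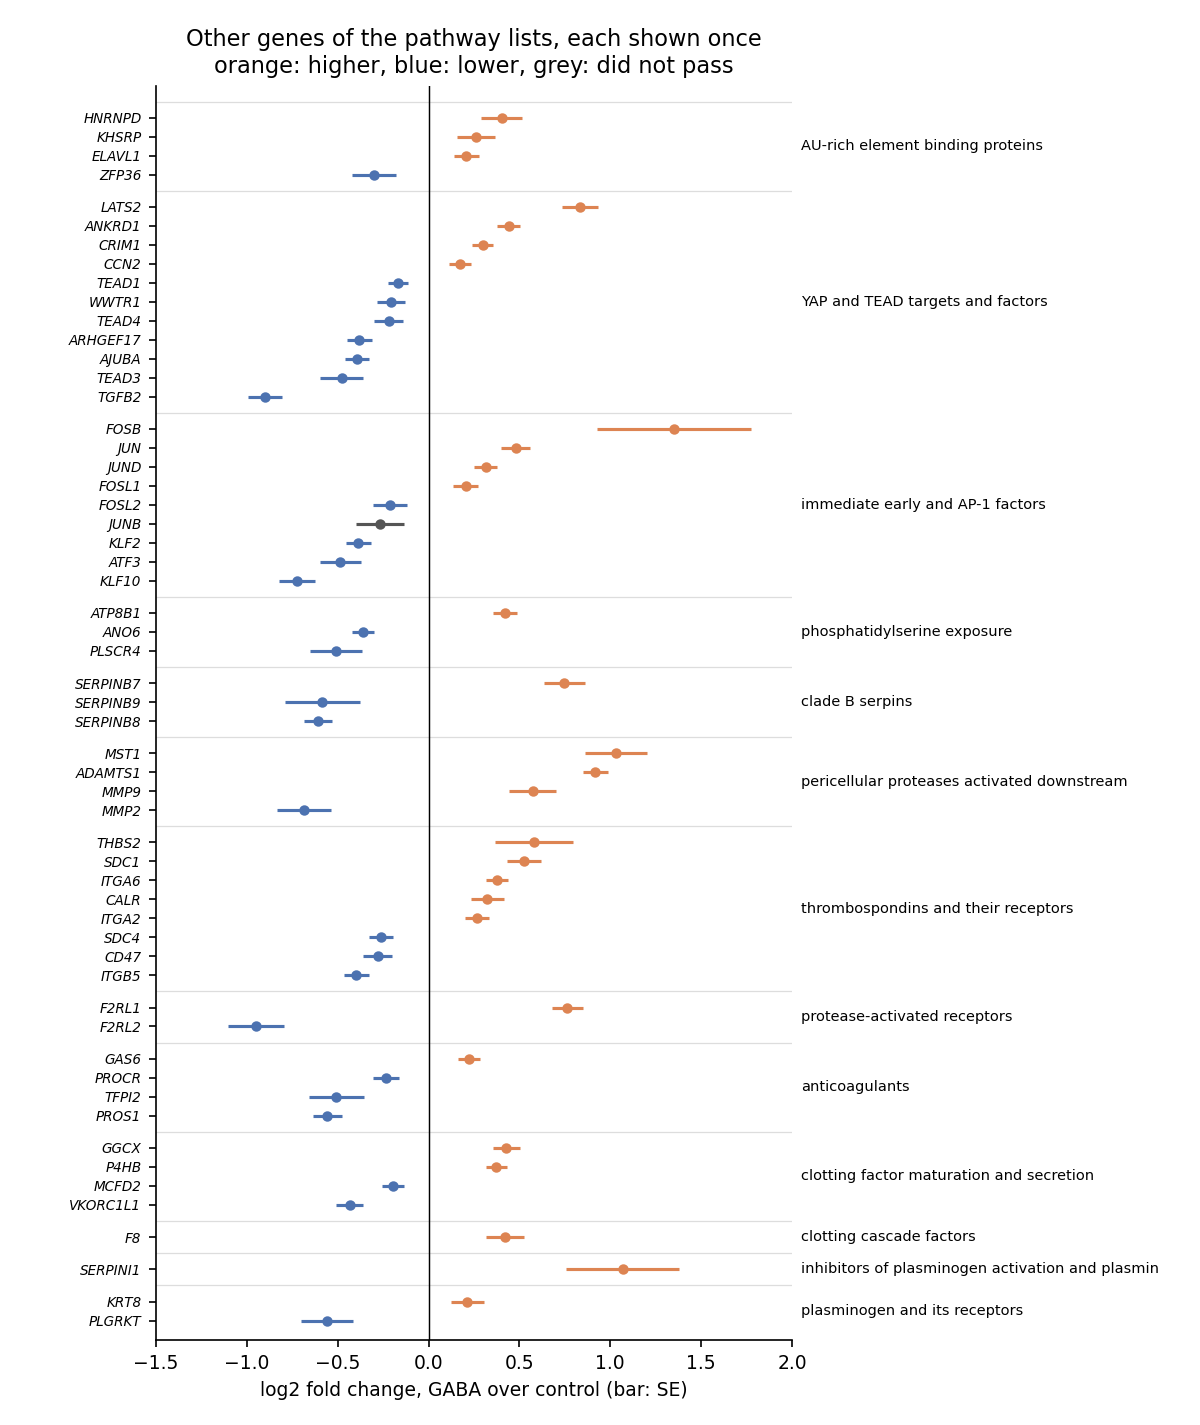
Log2 fold change of GABA over control with its SE for each of the 56 tested pathway genes other than the 6 members, by list (orange passed and higher, blue passed and lower, grey did not pass). Values spread to both sides of 0 within most lists, from -0.95 for F2RL2 to 1.35 for FOSB, and JUNB is the gene that did not pass.

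Factors named by the promoter motifs were looked at from lists of their genes. Of 20 immediate early and AP-1 factors 9 were listed, and 4 rose, 4 fell and JUNB did not pass (-0.27 ± 0.13, adjusted p = 0.063). Of all tested genes, 47.6% were called higher and 51.2% lower. JUN, an AP-1 subunit, had 770, 894 and 726 CPM in control and 1145, 1146 and 1039 CPM in GABA libraries, and it rose by 0.48 ± 0.08 (adjusted p = 4.0e-04). JUND, another subunit, rose by 0.31 ± 0.06 (176 to 218 CPM). KLF10 and KLF2, zinc finger factors, fell by 0.72 ± 0.10 (247 to 149 CPM) and 0.39 ± 0.07 (146 to 112 CPM). With a library left out, 3 to 4 genes of this list rose and 3 to 4 fell: FOSB was lost without GABA replicate 1 (adjusted p = 0.063), FOSL1 without GABA replicate 2 (0.082) and ATF3 without control replicate 3 (0.093). FOSL2 was lost without control replicate 1 (0.065) or 2 (0.19, with -0.11 in place of -0.21) and without GABA replicate 2 (0.087) or 3 (0.18). It also did not pass with DESeq2 (0.092), its size factors (0.097) or library size alone (0.065). EGR1 is not in the files used here.

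The list of YAP and TEAD target genes holds F3 and THBS1 and also the factors themselves. Besides F3 and THBS1, 11 of its 21 genes were listed, and 4 rose and 7 fell, beside 47.6% and 51.2% of all tested genes. Of the 7 that fell, 4 were the factors TEAD1, TEAD3, TEAD4 and WWTR1. LATS2, a kinase that inhibits YAP, rose from 153 ± 24.15 to 273 ± 4.09 CPM (adjusted p = 4.4e-05, with a log2 fold change of 0.83 ± 0.10), and ANKRD1, an ankyrin repeat protein, from 829 ± 56.9 to 1125 ± 23.0 CPM (0.44 ± 0.06). TGFB2, a transforming growth factor, fell from 262 ± 29.4 to 140 ± 12.8 CPM (-0.90 ± 0.09, adjusted p = 1.9e-05). AJUBA, a LIM domain protein, fell by 0.39 ± 0.07 (adjusted p = 4.8e-04). With DESeq2 or its size factors, TEAD1, TEAD4 and WWTR1 did not pass (adjusted p of 0.053 to 0.081), and 4 genes fell. With a library left out, 3 to 4 genes rose and 4 to 7 fell. CCN2 was lost without control replicate 2 (0.051) or GABA replicate 1 (0.077) or 2 (0.061). TEAD1 was lost without GABA replicate 1 (0.055) or 2 (0.053), and TEAD4 without control replicate 1 (0.094) or 2 (0.051) or GABA replicate 1 (0.084) or 2 (0.056). WWTR1 was lost without control replicate 1 (0.063) or GABA replicate 1 (0.086) or 3 (0.067).

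AU-rich elements in the 3′ end of a messenger RNA mark many short-lived transcripts. The pentamer ATTTA and the nonamer TTATTTATT were counted after the stop codon of the principal transcript. SERPINB2 had 4 pentamers and 1 nonamer in 574 bases, and THBS1 had 8 and 1 in 4097 bases, while 7.46% of 19226 genes had a nonamer. F3 had 6 pentamers in 1235 bases and TFPI 17 in 2675 bases, with no nonamer. PLAT and PLAU had 2 pentamers each, in 760 and 932 bases. Per kilobase this was 6.97 for SERPINB2, 6.36 for TFPI, 4.86 for F3, 2.63 for PLAT, 2.15 for PLAU and 1.95 for THBS1, against a median of 1.38 over all genes. The density was above this median in all 6 genes, whether they were higher or lower with GABA. Of all genes, however, 41.1%, 38.1% and 30.9% were at least as dense as THBS1, PLAU and PLAT. Among the listed genes the median was 1.64 per kilobase, and 8.64% had a nonamer. The median length searched was 871 bases over all genes, much shorter than in THBS1.

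Of 11 proteins that bind these elements, 4 were listed. HNRNPD, also called AUF1, went from 308 ± 61.1 to 407 ± 9.34 CPM (adjusted p = 0.0066, with a log2 fold change of 0.40 ± 0.11), or 0.26 without control replicate 3. ELAVL1, the stabilising protein HuR, rose by 0.21 ± 0.07 (188 to 217 CPM, adjusted p = 0.015), a call lost without GABA replicate 3 (adjusted p = 0.072). KHSRP, which promotes decay, had 0.26 ± 0.10 (adjusted p = 0.029), and lost its call without GABA replicate 1, 2 or 3 (adjusted p = 0.062, 0.071 and 0.080). Its value was 0.13 without control replicate 3. ZFP36, tristetraprolin, had -0.30 ± 0.12 (adjusted p = 0.029), with overlapping groups. It did not pass with DESeq2 or its size factors (adjusted p = 0.062 and 0.057), without control replicate 1 or 2 (0.066 and 0.12, with -0.20 in the second case) or without GABA replicate 1, 2 or 3 (0.11, 0.059 and 0.050).

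The control libraries are part of the comparison that chose the 6 genes, so their levels are given as a description. Per kilobase of merged exons the order was THBS1 (629 ± 40.3 CPM per kb, SD, n = 3), F3 (457 ± 21.6), PLAU (268 ± 15.9), PLAT (56.0 ± 5.34), TFPI (53.7 ± 7.73) and SERPINB2 (23.5 ± 3.24). Neighbours in this order did not overlap in their 3 values, except PLAT and TFPI. Per kilobase of the principal transcript, TFPI (162 ± 23.3) was above PLAT (137 ± 13.1). In the GABA libraries THBS1 and F3 were close with either length, at 868.2 ± 8.54 and 843 ± 16.1 CPM per kb of merged exons and at 1023 ± 10.1 and 1060 ± 20.2 per kb of principal transcript. PLAT was below PLAU in the GABA libraries by merged exons (167 ± 8.42 against 237 ± 13.3) and above it by principal transcript (408 ± 20.6 against 302 ± 16.9). In counts not divided by length, 46.8% of listed genes lay below SERPINB2 in the control libraries, and at least 90.3% lay below each of the other 5.

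**Figure D4:**
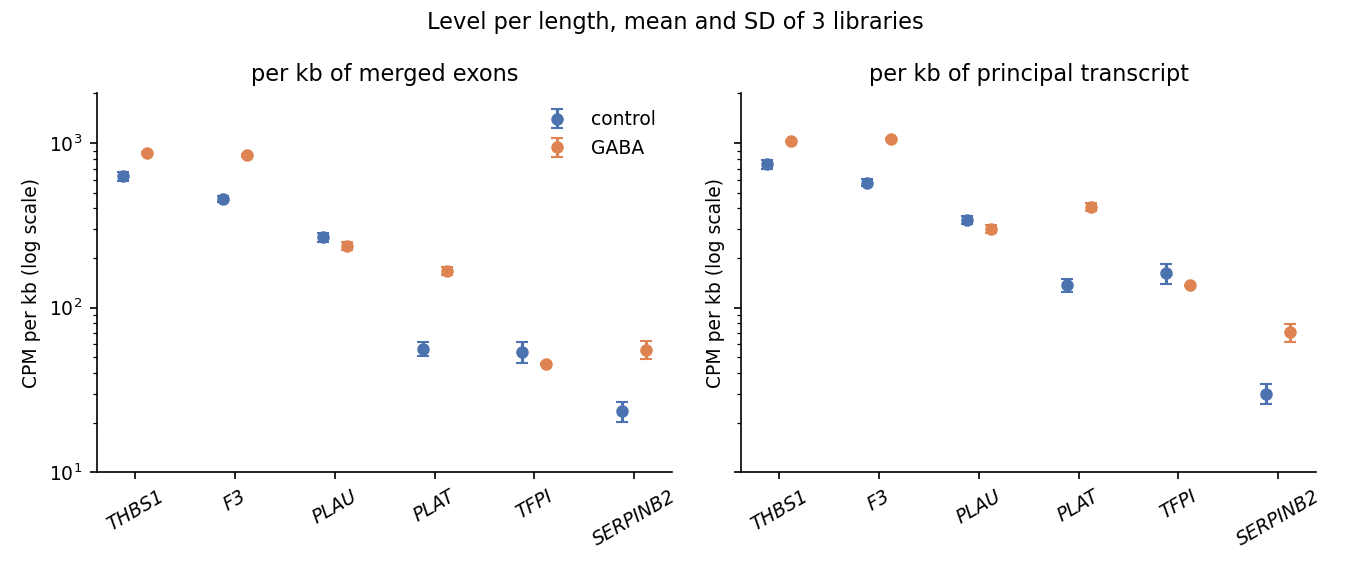
Mean and SD of 3 libraries for each gene in CPM per kilobase, on a log scale, for control (blue) and GABA (orange), with length taken as merged exons (left) or the principal transcript (right). THBS1, F3 and PLAU are the 3 highest in control with either length, while with the length used the order changes for PLAT and TFPI in control and for PLAT and PLAU and THBS1 and F3 in GABA libraries.

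Between replicates the 6 genes varied more than counting alone would give in 11 of 12 gene and group combinations. Coefficients of variation in the control libraries ran from 4.73% for F3 to 14.4% for TFPI, where counting alone gave 0.979% and 1.42%. In the GABA libraries they ran from 0.984% for THBS1 to 12.7% for SERPINB2. The exception was TFPI in the GABA libraries, at 1.09% against 1.54% from counting. The biological coefficient of variation that edgeR fitted over both groups was lowest for F3 (5.98%) and highest for SERPINB2 (9.40%), and 8.27% and 68.4% of tested genes had a lower one.

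The genes most like each member were found by the root mean square difference of log2 CPM, centred on each gene's mean, over the 6 libraries and among the 3070 genes averaging 50 CPM or more. This measure is dominated by the difference between the groups and is a description. The nearest to PLAT was IL1B, the cytokine interleukin-1 beta, at 0.06 (median over all genes 0.88), with 41.6, 44.5 and 39.0 CPM in control and 120, 129 and 133 CPM in GABA libraries. RBM14, an RNA-binding protein, and INHBA, the activin A subunit, followed at 0.14 and 0.17. Nearest to SERPINB2 were STC1, the hormone stanniocalcin 1, at 0.11, INHBA at 0.15 and the zinc importer SLC39A10 at 0.16 (median 0.72). Nearest to F3 was SGK1, a serum- and glucocorticoid-regulated kinase, at 0.03 (median 0.53), with 813, 791 and 830 CPM in control and 1548, 1599 and 1523 CPM in GABA libraries. CKAP2L, a spindle protein, and DOCK4, a Rac exchange factor, came next to F3 at 0.04 each.

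For the members with small changes many genes were near. TEX2, TOMM40L and LRWD1 were nearest to THBS1 at 0.03 to 0.04 (median 0.33). RNF19B, H3-3B and GPR107 were nearest to PLAU at 0.02 each (median 0.21). SMCHD1, DANCR and ATG3 were nearest to TFPI at 0.02 to 0.03 (median 0.25). SMCHD1, a chromatin protein, had 140, 129 and 176 CPM in control and 129, 125 and 128 CPM in GABA libraries, with control replicate 3 apart from the others as in TFPI.

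Endothelial cells, platelets, macrophages and fibroblasts also make several of these proteins, and their markers were looked at for that reason. None of 8 platelet markers or 8 macrophage markers is listed, which does not show that they were absent, because the list follows the comparison. ESAM, the single listed gene of 10 endothelial markers, had 4.09 ± 0.76 CPM in control and 6.85 ± 1.92 CPM in GABA libraries, with overlapping groups. Of 9 fibroblast and stellate cell markers, COL3A1 rose from 20.0 ± 2.00 to 31.6 ± 3.995 CPM and PDGFRB fell from 40.3 ± 6.23 to 20.2 ± 1.46 CPM. Their part in the differences described above was not tested.

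**Figure D5:**
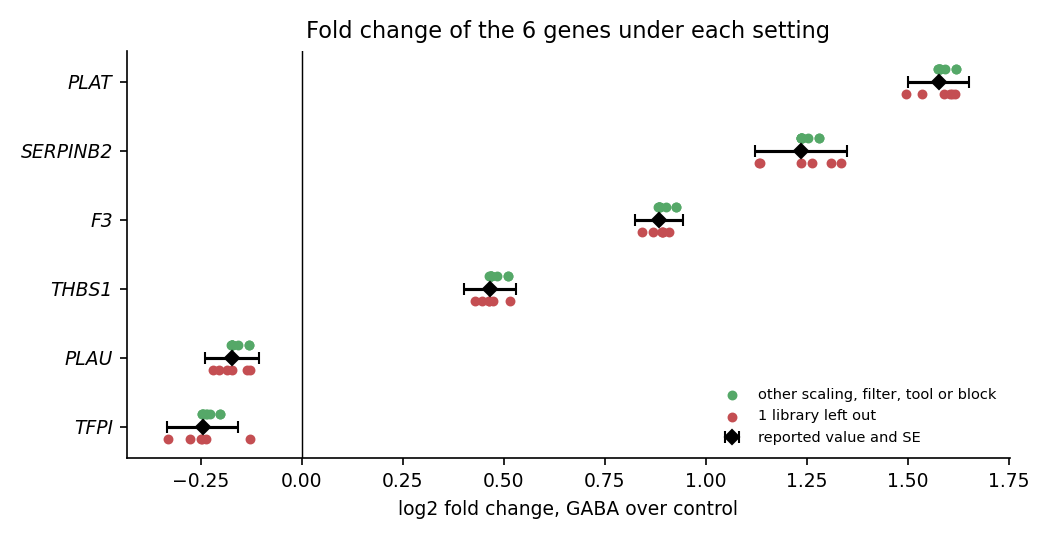
Log2 fold change of GABA over control for the 6 genes (diamonds with SE), under 9 other settings of scaling, filter, tool or replicate block (green) and with each of the 6 libraries left out (red). No value crosses 0, and TFPI moves most for its size, from -0.33 to -0.13.

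Across these 15 settings the log2 fold change ran from 1.497 to 1.62 for PLAT, 1.13 to 1.34 for SERPINB2, 0.84 to 0.93 for F3, 0.43 to 0.52 for THBS1, -0.22 to -0.13 for PLAU and -0.33 to -0.13 for TFPI. Since the listed genes had been selected on this comparison, a constant sign was largely fixed beforehand.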

How the data were processed

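The libraries come from Huh7 cultures, 3 without and 3 with GABA. The deposited values are whole-number read counts per gene, per the file headers. CASAVA 1.8 and Bowtie 0.12.2 with hg38 are named in the submitters' processing notes; the counting program, annotation and strand setting are not given in the sources used here. GENCODE release 29, which uses that build, held all 5187 identifiers. Replicates of a group differed beyond sampling noise (chi-square per degree of freedom 2.67 to 25.2). The highest values, 17.5 and 25.2, were those of control replicate 3 against control replicates 1 and 2. Control replicates 1 and 2 gave 5.30, and pairs of GABA libraries gave 2.67 to 4.33.

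The 6 members, the 14 pathway lists and the marker lists were chosen with earlier results of these data known. Genes were tested with edgeR 4.0.16 in R 4.3.3: filterByExpr (minimum count 10, total 15) left 4981 genes, followed by TMM, a robust quasi-likelihood fit and Benjamini-Hochberg adjustment over all of them, with a threshold of 0.05. The script was tested on simulated data. Text naming follows a rule: the 6 members, up to 4 genes of lowest p in each list, and 3 genes most like each member (log2 of CPM + 0.5); lists leave out members. Other genes were named after their values were seen, and 1 gene is not reported here and is left out of the lists.

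Alternatives were other scalings, filters, DESeq2 1.42.0, limma-voom (limma 3.58.1), a replicate block and each library left out; for levels and ratios, other lengths. A planned permutation test between neighbouring control levels is not given, because the control values had entered the choice of genes. Python 3.11.15 and scipy 1.17.1 handled the rest. Counting errors cover reads, not independent molecules.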

Additional observations from a re-analysis of the deposited data

How the results depend on the processing

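Over all 90 combinations of member and setting the sign was kept and the value moved by less than the SD between replicates. For the left-out libraries this was largely fixed beforehand, since dropping 1 of 3 moves a group mean by less than that group's SD. TFPI stayed within it although its log2 fold change went from -0.25 to -0.13 without control replicate 3. Called genes numbered 4324 with DESeq2 and 5131 when unfiltered, the lowest and highest of the settings on all libraries, and 4025 to 4735 when 1 library was dropped. Of the 56 tested pathway genes 55 were called (98.2%, beside 98.7% of all tested genes). With DESeq2 50 were called, beside 4324 of all 4981, and with a library left out 45 to 55. Of the 56 genes, 40 kept their call in every setting, 15 lost it in at least 1, and none changed sign. The same count over all tested genes is not given here. The replicate block gave 4823 called genes and 55 pathway genes. The numbers are not stated to pair cultures, and same-numbered libraries did not deviate together (correlations 0.0007, -0.091 and -0.036). The order of the control levels kept 14 of 15 gene pairs with the principal transcript, a length added after the data had been seen, and 14 to 15 with a control library left out. The pair that changed was PLAT and TFPI. DESeq2's scaling moved the median log2 fold change by 0.04, and 54.8% of its calls were higher. Of the ratios, the level but not the change moved with length. Levels on the listed genes cannot give a gene's share of the whole library.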

Other observations

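Tissue factor is most active where phosphatidylserine is exposed on the outer membrane, and 3 of 13 genes of that process were listed. ANO6, the scramblase that exposes phosphatidylserine on platelets, fell from 586 ± 18.1 to 456 ± 14.1 CPM (SD, n = 3; edgeR adjusted p = 4.0e-04, with a log2 fold change of -0.36 ± 0.06). PLSCR4, of the phospholipid scramblase family, fell by 0.51 ± 0.14 (19.2 to 13.5 CPM, adjusted p = 0.0071). ATP8B1, a flippase that moves phospholipids inward, rose from 189 ± 2.55 to 252 ± 12.7 CPM (0.42 ± 0.07, adjusted p = 2.7e-04). In each of the 3 genes the groups did not overlap, which held for 92.5% of the tested genes.

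SERPINB2 lies on chromosome 18 with other clade B serpins, intracellular and secreted protease inhibitors. Of 12 further clade B genes 3 were listed. SERPINB7, also on chromosome 18, rose from 30.4 ± 3.96 to 51.2 ± 1.67 CPM (adjusted p = 2.4e-04, with a log2 fold change of 0.75 ± 0.11). SERPINB8, on the same chromosome, fell from 137 ± 5.31 to 90.1 ± 3.84 CPM (-0.61 ± 0.08, adjusted p = 6.4e-05). SERPINB9, the granzyme B inhibitor on chromosome 6, fell by 0.58 ± 0.21 (14.4 to 9.63 CPM, adjusted p = 0.018), a call lost without GABA replicate 3 (-0.38, adjusted p = 0.079).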
